A study of Mus musculus with 2 samples.

Results

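The genes described here encode the proteins of the cytosolic ribosome. They were taken by name: every gene row whose symbol starts with Rpl or Rps and a digit, or with Rplp, or is Rpsa, without the pseudogene rows and without the Rps6k kinases. The rule found 86 of 31053 gene rows. Of these, 77 encode proteins of the ribosome itself, 31 in the small subunit and 46 in the large subunit, the latter including the 3 stalk proteins Rplp0, Rplp1 and Rplp2. The other 9 are paralogs or other proteins with a matching symbol, namely Rpl3l, Rpl7l1, Rpl10l, Rpl22l1, Rpl36al, Rpl39l, Rps27l, Rps27rt and Rps19bp1. All 86 have a gene model in GENCODE vM21 on GRCm38. Rps4l was not analysed here.

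The small subunit reads the messenger RNA and the large subunit joins the amino acids, and each carries a fixed set of proteins around its ribosomal RNA. Because a ribosome holds a single copy of nearly every one of these proteins, their genes are expressed together, and their messengers are among the most abundant of a growing cell. Most of these messengers begin with a run of pyrimidines, the terminal oligopyrimidine or TOP element, through which mTORC1 and Larp1 set how strongly they are translated. Inherited loss of one copy of several of these genes causes Diamond-Blackfan anaemia, a failure of red cell production in the marrow.

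The study prepared single-cell RNA libraries from the bone marrow of aged mice of the strain C57BL/6J. Their gut flora was replaced by transplantation, from young donors in the group FMT_young and from aged donors in the group FMT_aged. Both groups are thus aged hosts of the same strain, and each is 1 library of the 10x Genomics Chromium kit, which counts molecules at the end of the transcript. The labels give no number of animals and no age in months. Sorted whole marrow, lineage-negative cells and lineage-negative Kit-positive cells were mixed in parts of 1, 1 and 4, so the classes below are not in their natural proportions. The comparison asks what the age of the donor microbiota changes in the marrow of an aged host. With 1 library per group no difference could be tested, and all 95% intervals cover counting error only. Where 2 values stand together, the first is that of FMT_young and the second that of FMT_aged.

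The libraries held 214982156 UMIs (unique molecular identifiers, each 1 counted transcript) in FMT_young and 207642851 in FMT_aged. After filters on depth, mitochondrial UMIs and doublets, 10793 and 10320 cells were kept, with medians of 11000 and 11554.5 UMIs per cell. The kept cells of the libraries had 32 barcodes in common. Cells were clustered without the ribosomal protein genes, so that these genes defined no class, and clusters were named as 15 classes from marker lists. Between 7 and 22 defining markers per class were present in 10% of its cells, for example 13 of 18 for the HSC-like class (hematopoietic stem cells), 10 of 10 for GMP-like (granulocyte-monocyte progenitors) and 15 of 16 for neutrophil progenitor-like cells. One Eosinophil marker and 2 T, NK or innate lymphoid markers were at 0 in their own class. Cells of 1522 and 617 barcodes stayed unnamed.

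Ribosomal protein transcripts made up 26.98% of UMIs in the kept cells of FMT_young and 28.10% in FMT_aged. The share differed between cell types far more than between the libraries. It was highest in multipotent progenitor-like (MPP-like) cells, at 33.03% of UMIs in FMT_young and 32.50% in FMT_aged. It was lowest in neutrophil-like cells, at 4.51% (95% exact Clopper-Pearson interval 4.49 to 4.53) and 4.18% (4.15 to 4.20).

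Below the MPP-like cells came a group of classes with shares near 30 to 32%. In order these were the monocyte progenitor-like cells at 31.96% in FMT_young and 31.02% in FMT_aged, the eosinophil-like cells at 31.59% and 31.29%, the HSC-like cells at 31.04% and 31.34%, the GMP-like cells at 30.97% and 30.07%, and the T, NK or innate lymphoid-like cells at 30.70% and 29.69%. The values of the 2 libraries overlapped between neighbours in this order, except that both values of HSC-like cells lay above both of GMP-like cells. Mature B-like cells had 29.27% and 28.80%, and basophil or mast-like cells 28.45% and 27.93%. Conventional dendritic-like cells had 24.37% and 25.58%, plasmacytoid dendritic-like cells 22.29% and 22.25%, and monocyte-like cells 22.00% and 21.99%. The macrophage-like class, with 104 and 30 cells, had 19.48% and 20.35%.

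Only 3 of the 15 classes lay under 15% in both libraries, a limit chosen after the values were seen: the neutrophil progenitor-like cells at 11.70% and 8.80%, the plasma cell-like cells at 8.15% and 9.13%, and the neutrophil-like cells. The first 2 of these overlapped in their library values, and the neutrophil-like cells lay below both. Single cells within a class varied, with a middle range (the first to the third quartile) of 28.97 to 33.10% in the GMP-like cells of FMT_young and 2.75 to 4.51% in its neutrophil-like cells. Counted per cell, the median was 8026 ribosomal protein UMIs in GMP-like and 145 in neutrophil-like cells of FMT_young, and 8526 and 107.5 in FMT_aged.

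**Figure D1:**
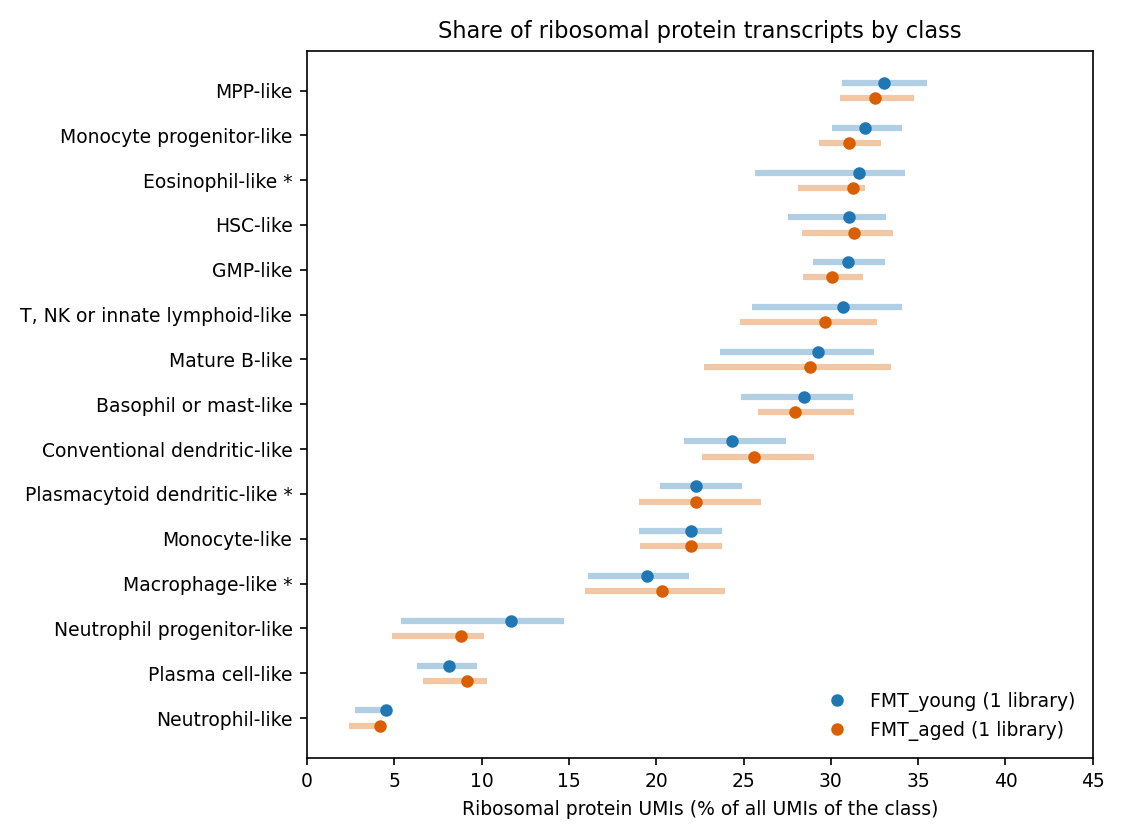
Ribosomal protein UMIs as a percent of all UMIs (x axis) in each of 15 classes (y axis), with 1 point for each library and a bar from the first to the third quartile of its cells. An asterisk marks classes with under 50 cells in a library, which were not compared between libraries. Neutrophil-like, plasma cell-like and neutrophil progenitor-like cells lie under 15%, and the progenitor classes near 30%.

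A share also depends on what else a cell transcribes. In plasma cells, which secrete antibody, immunoglobulin transcripts took 61.0% and 60.1% of UMIs, and without immunoglobulin and mitochondrial UMIs the ribosomal protein share was 21.9% and 24.1%. In neutrophil-like cells the 50 leading other genes took 55.2% and 55.3% of UMIs, and without them the share was 10.1% and 9.35%, still the lowest of the 15 classes. With the leading genes left out in the same way, neutrophil progenitor-like cells had 21.8% and 17.7%. Barcodes with under 100 UMIs, taken here as free RNA, had 22.0% and 22.5%. The shares of neutrophil-like, plasma cell-like, neutrophil progenitor-like and macrophage-like cells lay below that of free RNA in both libraries. Those of monocyte-like and plasmacytoid dendritic-like cells did so in FMT_aged only. After thinning every cell to 2000 UMIs, neutrophil-like cells had 3.96% and 3.46%.

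The start of these genes is where the TOP element lies. RefSeq start sites on GRCm38.p6 were held for 66 of the 86 genes. The 30 bases shown for each gene are 15 before and 15 from the annotated start, and the capitals mark the unbroken stretch of C and T that holds the start, read from its first C at most 5 bases upstream. They are shown for some of the genes on which the results below turn. First come genes picked for having such a stretch among those that differed between the libraries in most classes (Rpl35, Rps21, Rpl38, Rps6, Rps18). The most abundant gene (Rps24) and genes that varied strongly between cell types (Rps9, Rps27) follow, and last come genes without such a stretch.
Rpl35, chr2:39005117-39005146, minus strand: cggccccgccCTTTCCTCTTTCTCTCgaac
Rps21, chr2:180257364-180257393, plus strand: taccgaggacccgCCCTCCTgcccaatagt
Rpl38, chr11:114668565-114668594, plus strand: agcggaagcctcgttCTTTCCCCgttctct
Rps6, chr4:86857353-86857382, minus strand: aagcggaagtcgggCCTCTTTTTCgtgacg
Rps18, chr17:33955651-33955680, minus strand: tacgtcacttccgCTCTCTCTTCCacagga
Rps24, chr14:24490663-24490692, plus strand: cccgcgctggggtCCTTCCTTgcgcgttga
Rps9, chr7:3704026-3704055, plus strand: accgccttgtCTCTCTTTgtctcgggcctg
Rps27, chr3:90213634-90213663, minus strand: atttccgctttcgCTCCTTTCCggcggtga
Rpl11, chr4:136053379-136053408, minus strand: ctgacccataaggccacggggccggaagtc
Rpl12, chr2:32961697-32961726, plus strand: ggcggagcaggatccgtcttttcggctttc
Rpl22l1, chr3:28805493-28805522, plus strand: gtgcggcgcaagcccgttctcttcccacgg
Rpl36al, chr12:69184053-69184082, minus strand: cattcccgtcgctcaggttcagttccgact

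A stretch of at least 5 such bases was present in 21 of the 66 genes (31.8%), against 9.56% of the 27025 genes of the promoter table. A stretch of at least 8 bases was present in 17 (25.8%), against 3.15%. Genes with several starts, 10 of the 66 and 4163 of the 27025, were counted by their longest stretch. The search used the sense strand only and depends on where the start is annotated, so that a start placed a few bases away hides the stretch, and no match says only that these letters are not at the annotated start. Some genes higher in FMT_young (Rpl35, Rps21, Rpl38) and some lower there (Rps6, Rps18) carried a stretch of at least 5 bases. Others that differed in most classes did not, among them Rpl6, Rpl10 and Rpl37 (higher) and Rpl7l1 and Rpl36al (lower).

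Levels of single genes are given as CPM, the UMIs of a gene per 1000000 UMIs of a class, and as a percent of all ribosomal protein UMIs of that class. As molecules are counted at the transcript end, CPM does not grow with transcript length. Averaged over the 12 classes with at least 50 cells in each library, 81 of the 86 genes reached 50 CPM. Among the 5 most abundant were Rps24 (mean 6208 CPM), Rps12 (5895), Rplp1 (5216) and Rpl13 (5095). Among genes with at least 30 UMIs in all kept cells, the 5 least abundant were Rpl3l (1.10 CPM), Rpl39l (1.37), Rps27rt (28.8), Rps19bp1 (36.9) and Rpl7l1 (58.8), all of them outside the ribosome's own set.

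Among small subunit genes, which together made 45.6 to 49.7% of the UMIs of ribosomal members in every class, Rps24 had the highest mean level. This gene on chromosome 14 (24487125 to 24496959) encodes a protein of the decoding subunit and is mutated in Diamond-Blackfan anaemia. It stood at 10333 and 10528 CPM in T, NK or innate lymphoid-like cells of FMT_young and FMT_aged, and made 4.17% and 4.46% of the ribosomal protein UMIs of plasma cell-like cells, against 2.16% and 2.18% in GMP-like cells.

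Rps9, on chromosome 7 (3703993 to 3706897), was the least reduced member in neutrophils. It was at 4546 and 4340 CPM in GMP-like cells and at 2197 and 2060 CPM in neutrophil-like cells, where it made 4.87% and 4.93% of ribosomal protein UMIs against 1.47% and 1.44% in GMP-like cells. Rps27a, which is translated as a fusion of ubiquitin with a small subunit protein, followed the same pattern, with 4.16% and 4.00% in neutrophil-like and 2.14% and 2.18% in GMP-like cells.

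Rps27, on chromosome 3 (90212522 to 90213651), was a gene of lymphocytes and neutrophils within the pool. It made 2.08% and 1.72% of ribosomal protein UMIs in mature B-like cells, 1.85% and 1.83% in T, NK or innate lymphoid-like cells and 1.88% and 1.79% in neutrophil-like cells. In GMP-like cells it made 0.80% and 0.70%. The values of both libraries in each of the first 3 classes lay above those of both libraries in GMP-like cells.

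The remaining small subunit genes fixed for description varied less. Rps6, the substrate of the S6 kinases, made 1.01% and 1.14% in GMP-like and 0.579% and 0.743% in T, NK or innate lymphoid-like cells. Rps14, whose loss underlies the anaemia of the 5q deletion syndrome, made from 1.34% to 1.93% over the 12 classes and libraries. Rps19, the gene most often mutated in Diamond-Blackfan anaemia, ranged from 1.12% in neutrophil-like cells of FMT_young to 2.02% in mature B-like cells of FMT_aged. Rps4x, the X-linked small subunit gene, ranged from 1.20% to 1.66%, and Rpsa, also known as the laminin receptor, from 1.16% to 1.99%. The 19 genes of Diamond-Blackfan anaemia together made 21.4 to 24.5% of ribosomal protein UMIs in the 15 classes, and so kept nearly the same part of the pool in all of them.

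Of the large subunit genes, Rpl12, which lies at the base of the stalk, was the most reduced in neutrophils of FMT_young. It was at 3780 and 3699 CPM in GMP-like and 195 and 225 CPM in neutrophil-like cells, or 1.22% and 1.23% against 0.432% and 0.539% of ribosomal protein UMIs. Rpl3, which lines the peptidyl transferase centre, had the same order, with 0.877% and 0.937% in GMP-like and 0.404% and 0.396% in neutrophil-like cells. Rpl41, the smallest ribosomal protein, stood out in plasma cell-like cells at 3.44% and 3.45%, against 1.67% and 1.58% in HSC-like cells.

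Rpl5 and Rpl11, which bind Mdm2 together when ribosome assembly fails, both varied less than the median member. Rpl11 had the smallest spread of all members, with a standard deviation of 0.06 over the 12 classes for the log2 of its part of the pool, and made 0.968 to 1.22% of it everywhere. Rpl5, with a standard deviation of 0.15, made 0.930% and 0.881% in plasma cell-like and 0.599% and 0.627% in neutrophil-like cells. After Rpl11 the most even were Rpl18 (0.08), Rps15 (0.08) and Rps3 (0.09), against a median of 0.21 over members. The stalk genes recruit the elongation factors. Rplp0 was at 4262 and 4297 CPM in GMP-like and 2255 and 2303 CPM in T, NK or innate lymphoid-like cells, whereas Rplp1 was at 6437 and 6665 CPM in the former and 8379 and 8863 CPM in the latter. Rplp2 was at 4793 and 4643 CPM in GMP-like and 5127 and 5100 CPM in T, NK or innate lymphoid-like cells.

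The members that varied most were mainly paralogs. The standard deviation over classes was 0.79 for Rps27l, 0.61 for Rpl36al, 0.58 for Rpl7l1, 0.55 for Rpl22l1, 0.51 for Rps27 and 0.48 for Rps9.

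**Figure D2:**
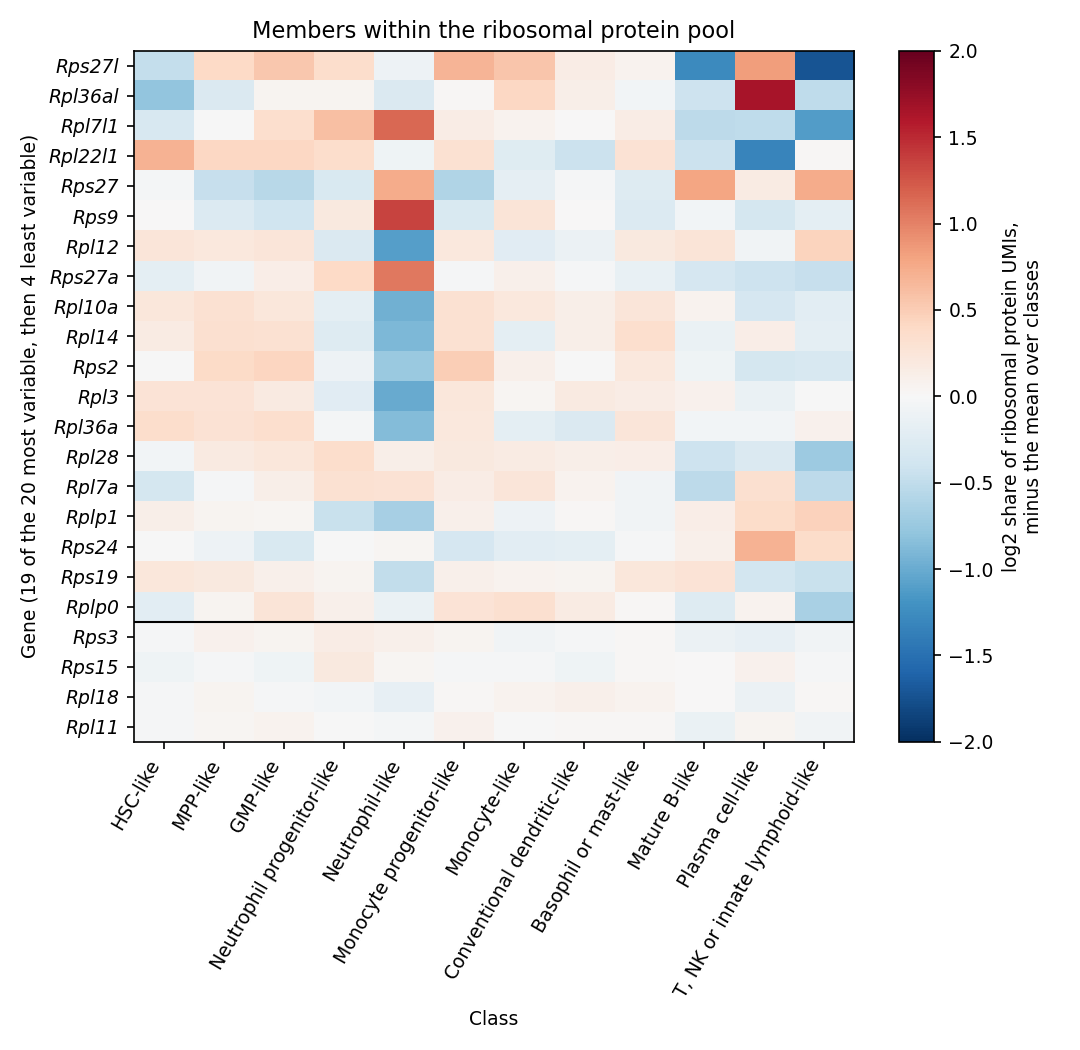
Part of each gene in the ribosomal protein UMIs of a class (colour: log2 of the percent, averaged over the 2 libraries, minus the gene's mean over the 12 compared classes), for 19 of the 20 most variable and the 4 most even members with at least 50 CPM. Rps9 and Rps27a stand out in neutrophil-like cells, Rpl36al in plasma cell-like cells and Rps27 in mature B-like and T, NK or innate lymphoid-like cells.

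Paralog pairs showed the largest differences between cell types. Rpl22l1, the paralog of Rpl22, an RNA-binding protein needed for T cell development, made 39.8% (FMT_young) and 36.3% (FMT_aged) of the UMIs of the pair in the HSC-like class, against 12.3% and 11.5% in plasma cell-like cells. By level it stood at 1384 and 1236 CPM in HSC-like and 85.4 and 93.2 CPM in plasma cell-like cells, while Rpl22 itself was at 2091 and 2167 CPM in the former and 608 and 716 CPM in the latter. The gap between these classes was wider than the gap between libraries in each.

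Rps27l, a p53 target that can take the place of Rps27, made 22.0% and 27.3% of the pair in monocyte progenitor-like and 19.4% and 25.4% in GMP-like cells. In T, NK or innate lymphoid-like cells it made 2.22% and 2.51%, and in mature B-like cells 2.04% and 4.69%. The myeloid progenitor classes thus held the larger part of Rps27l in both libraries, together with plasma cell-like cells at 19.4% and 16.2%.

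Rpl36al, on chromosome 12 (69182731 to 69184083), was the only paralog to exceed its partner among the 12 compared classes. It made 59.4% and 66.1% of the pair with Rpl36a in plasma cell-like cells and 16.7% and 21.4% in the HSC-like class. Its part was higher in FMT_aged than in FMT_young in all 15 classes.

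The paralogs known from muscle and testis were near the limit of detection. Rpl3l, a striated muscle paralog of Rpl3, had 152 and 90 UMIs in all kept cells, of which 39 and 19 came from neutrophil-like cells (9.95 and 6.30 CPM) and 43 and 41 from GMP-like cells (0.842 and 0.809 CPM). Rpl39l, a paralog of Rpl39 known from the testis, had 251 and 299 UMIs, 102 and 147 of them in GMP-like cells. Rpl10l, the autosomal copy of X-linked Rpl10, had 0 UMIs in the kept cells, which allows up to 0.0189 CPM in FMT_young and 0.0192 CPM in FMT_aged. Barcodes under 100 UMIs held 2 and 6 UMIs of it.

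Rps27rt, an intronless copy of Rps27 on chromosome 9 (114982366 to 114982739), is so like Rps27 that reads may be split between them. It had 0.517 to 0.890% of the UMIs of the pair in the 15 classes of FMT_young and 1.26 to 1.66% in those of FMT_aged. The ranges of the libraries did not overlap.

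**Figure D3:**
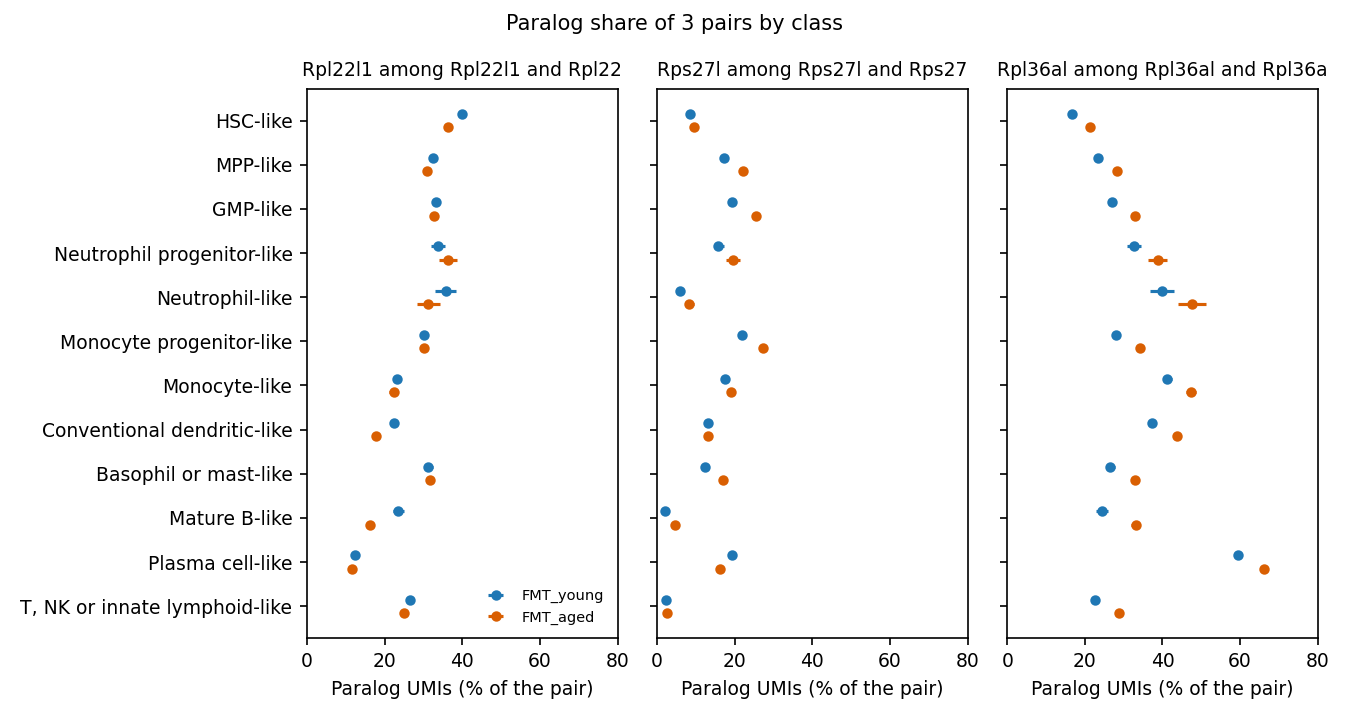
UMIs of Rpl22l1, Rps27l and Rpl36al as a percent of the UMIs of the paralog and its partner (x axes), in the 12 compared classes (y axis) of FMT_young and FMT_aged, with 95% exact intervals that cover counting error. Rpl22l1 is highest in HSC-like cells, Rps27l in myeloid progenitor classes and Rpl36al in plasma cell-like cells.

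Within each library, related classes were set side by side gene by gene, over genes with at least 100 UMIs in the 2 classes together. From GMP-like to neutrophil-like cells 84 members passed and were lower in each library (74.9% and 73.6% of all genes), but Rps27rt, Rps19bp1, Rpl39l and Rpl7l1 passed only through the GMP-like cells, where they were higher. With the limit set in the neutrophil-like cells alone, 80 of 80 members were lower in each library, where 46.8% and 43.7% of all genes were. Their median log2 ratio was then -2.89 and -3.00, against 0.10 and 0.24 over all genes. The smallest difference was that of Rps9, at -1.05 and -1.07.

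Between GMP-like and neutrophil progenitor-like cells 84 members were again lower in the latter (72.5% and 71.8% of all genes), 4 of them passing only through the GMP-like cells. With the limit set in the progenitor class alone 80 of 80 were lower in each library (56.2% and 53.8% of all genes). Their median log2 ratio was then -1.43 and -1.81, against -0.14 and -0.09 over all genes. The summed share of all members differed by -1.41 and -1.77 on the log2 scale. The members were thus already lower in the progenitor class, by less than in neutrophil-like cells.

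Monocytes kept more of these transcripts. From monocyte progenitor-like to monocyte-like cells 82 of 83 members tested were lower in each library (53.2% and 53.6% of all genes). With the limit set in the monocyte-like cells it was 81 of 82 and 80 of 81 (40.7% and 40.3%), and the log2 ratio of the sum was -0.54 and -0.50. The exception was Rps9, at 4947 and 4801 CPM in the progenitors and 4963 and 5077 CPM in monocyte-like cells. Between mature B-like and plasma cell-like cells, 81 and 82 of 83 members were lower in the latter (88.1% and 90.3% of all genes). The counts were the same with the limit set in plasma cell-like cells (87.0% and 87.4%). The members' median log2 ratio was then -1.84 and -1.70, against -1.24 and -1.23 over all genes, and the sum differed by -1.85 and -1.66. Without immunoglobulin and mitochondrial UMIs the share was 31.8% and 31.7% in mature B-like and 21.9% and 24.1% in plasma cell-like cells. Rpl36al was higher in plasma cell-like cells in both libraries, at 748 and 972 CPM against 575 and 814 CPM. Between HSC-like and MPP-like cells, 62 and 59 of 83 members were higher in the latter (48.2% and 42.3% of all genes), and the sum differed by only 0.09 and 0.05.

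The libraries were compared in 12 classes. The share of ribosomal protein UMIs was higher in FMT_young in 9 classes and lower in 3, and in 11 of the 12 the log2 ratio lay within 0.25 of 0. The exception was the neutrophil progenitor-like class, at 11.70% in FMT_young and 8.80% in FMT_aged, a log2 ratio of 0.41 (95% interval 0.40 to 0.42). Next came neutrophil-like cells at 0.11 (0.10 to 0.12), a value that was 0.46 without doublet removal and 0.57 with classes by marker score, so that this class too was then past 0.25. The other higher values included T, NK or innate lymphoid-like cells at 0.048, and monocyte progenitor-like and GMP-like cells at 0.043 each. The 3 lower values were those of plasma cell-like cells at -0.17 (-0.17 to -0.16), conventional dendritic-like cells at -0.070 and HSC-like cells at -0.014. For monocyte-like cells the interval covered 0, from -0.0040 to 0.0058.

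Other differences stood beside several of these. In the neutrophil progenitor-like class, all 10 GMP markers were higher in FMT_young (9476 against 5058 CPM in sum, Elane 3570 against 1428 CPM), and 12 of 16 neutrophil markers were lower (34.4% against 38.7% of UMIs). The shallower part of its cells by UMI count had shares of 7.15% in FMT_young and 7.13% in FMT_aged, and the deeper part 13.9% and 9.61%. With finer clusters (resolution 2.0) all 156 and 150 cells kept the name and their ratio of 0.41, but 1042 and 659 other cells with shares of 29.6% and 28.8% took it too, and the enlarged class had a log2 ratio of 0.047. The part of maturity and depth in the difference was not tested.

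Plasma cell-like cells came from different clusters in the libraries. Of 1140 cells in FMT_young, 908 lay in a cluster that held 2 cells of FMT_aged, and of 686 in FMT_aged, 324 lay in one that held 4 cells of FMT_young. In the cluster that both shared, with 228 and 360 cells, the share was 8.77% and 10.1%. The direction turned when classes were assigned by marker score, to a log2 ratio of 0.20, and with finer clusters, to 0.016. The marker score added 400 and 68 cells to the class, and its 1135 and 679 cells that kept the name had -0.16. The finer clusters took 15 and 146 cells out of it.

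In conventional dendritic-like cells 12 of 13 of the class's own markers were lower in FMT_young, with 1.92% against 3.25% of UMIs. Its larger cluster had shares of 24.3% and 24.6%, and the other, with 57 and 124 cells, 24.5% and 27.1%. The part of this make-up in the class difference was not tested. In HSC-like cells the direction turned with the scaling: relative to the other genes, by TMM, the log2 ratio of the summed members was 0.10 in place of -0.014. By the same scaling it was -0.019 in place of -0.17 in plasma cell-like cells. It was -0.13 in place of -0.070 in conventional dendritic-like cells and 0.22 in place of 0.11 in neutrophil-like cells.

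Gene by gene, 81 to 84 of the 86 members passed the limit of 100 UMIs in a class. The neutrophil progenitor-like class was the one in which nearly all lay on one side: 80 of 81 were higher in FMT_young, where 49.8% of all genes tested were, and 73 reached a log2 ratio of 0.25, which 18.4% of all genes did. Its 2 leading members were Rpl10, at 1141 and 670 CPM (0.77, interval 0.68 to 0.86), and Rpl39, at 1578 and 950 CPM (0.73, 0.65 to 0.81). No member had a log2 ratio of -0.25 or less there, against 15.6% of all genes.

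The other classes were mixed. In neutrophil-like cells 63 of 81 members were higher in FMT_young (39.1% of all genes), in GMP-like cells 52 of 84 (36.8%), in T, NK or innate lymphoid-like cells 51 of 83 (30.2%) and in monocyte progenitor-like cells 50 of 84 (36.5%). In basophil or mast-like cells 42 of 83 were higher (36.3%), in MPP-like cells 41 of 83 (34.9%), in mature B-like cells 40 of 83 (42.7%) and in monocyte-like cells 33 of 83 (40%). In HSC-like cells 27 of 83 were higher (29.1%), close to the share of all genes.

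The members of monocyte-like cells also lay close to the share of all genes. Members were lower in FMT_young more often than all genes in plasma cell-like and conventional dendritic-like cells. In plasma cell-like cells 73 of 83 were lower, where 65.9% of all genes were, with 18 at -0.25 or less (31.8% of all genes), and the members' median was -0.18 against -0.12 over all genes. In conventional dendritic-like cells 63 of 83 were lower, where 42.9% of all genes were, with a median of -0.07 against 0.05.

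Over the 994 pairs of a member and a class, 509 (51.2%) were higher in FMT_young, where 37.9% of the pairs of any gene tested and a class were. With TMM scaling, which shifted the classes by -0.15 to 0.06 on the log2 scale, 69.7% were. The pairs of all genes were not counted under this scaling, which shifts them too. The 69.7% is thus not comparable with the 37.9%. The shift was beyond 0.1 in plasma cell-like (-0.15), HSC-like (-0.12) and neutrophil-like cells (-0.10). A log2 ratio of 0.25 or more was reached by 139 pairs of a member and a class (11.8% of the pairs of all genes), of which 73 were in the neutrophil progenitor-like class, and one of -0.25 or less by 69 (20.1%).

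A small set of members kept 1 direction in all 12 classes. Of the 81 members tested in every class, Rpl35, Rps21, Rps29, Rpl38, Rpl36 and Rpl6 were higher in FMT_young in each (7.41% of members, where 3.74% of the 2838 genes tested in every class were). These names were not fixed ahead but counted after the ratios had been seen. All 6 kept this under TMM scaling.

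Rpl35, a large subunit protein at the exit of the peptide tunnel whose gene lies on chromosome 2 (39001580 to 39005624), had the largest difference. It was at 2152 CPM in MPP-like cells of FMT_young and 1623 CPM in those of FMT_aged, at 1988 and 1472 CPM in GMP-like cells, and at 1536 and 1074 CPM in T, NK or innate lymphoid-like cells. The log2 ratio had a median of 0.44 over classes and ran from 0.35 in basophil or mast-like cells to 0.75 in neutrophil progenitor-like cells. The same gene was higher in FMT_young by 0.56 in the barcodes with under 100 UMIs, so its difference was as large in free RNA as in cells.

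Other members of the set had smaller ratios. Rps21, a small subunit protein, was at 3857 and 3025 CPM in GMP-like cells, with a median log2 ratio of 0.35 over classes and 0.35 in barcodes under 100 UMIs. Rpl38, a large subunit protein known from patterning of the mouse skeleton, was at 3494 and 2726 CPM in GMP-like cells, with a median of 0.34 and 0.29 in barcodes under 100 UMIs. Rps29, a zinc-binding small subunit protein, was at 6907 and 5253 CPM, with 0.31 and 0.35. For each of these the free RNA of a library held nearly the same ratio as its cells. Rpl36 (median 0.23, and 0.19 in free RNA) differed less, and Rpl6 had a median of 0.10 in cells and -0.04 in free RNA. Rpl37, Rpl39 and Rpl10, with medians of 0.32, 0.27 and 0.24 and free RNA values of 0.32, 0.26 and 0.25, were higher in FMT_young in at least 11 of 12 classes.

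Rpl7l1, a nucleolar relative of Rpl7, was the only member lower in FMT_young in all 12 classes (1.23% of members against 4.72% of genes), with a median of -0.25 and -0.43 in free RNA. It did not keep this in 5 of the alternatives: thinning, free RNA subtracted, members used in clustering, finer clusters and classes by marker score. Its level was low, 90.9 and 106 CPM in GMP-like cells. Rps27rt was lower in all 10 classes in which it passed the limit, with a median of -0.78, for example 18.3 and 29.9 CPM in GMP-like cells. Rpl36al was lower in 11 of 12, with a median of -0.34, at 892 and 1121 CPM in GMP-like cells.

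2 abundant small subunit genes were on the same side. Rps18 was lower in FMT_young in 11 of 12 classes with a median of -0.22, and was among the lowest in plasma cell-like cells at 818 and 1116 CPM (-0.45). Rps6 was lower in 10 of 12 with a median of -0.24, and was among the lowest in T, NK or innate lymphoid-like cells at 1777 and 2207 CPM (-0.31). In free RNA the ratios were -0.27 for Rps18 and -0.26 for Rps6.

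Some members differed in single classes. Rpl22l1 was higher in FMT_young in mature B-like cells, at 668 and 462 CPM (0.53, 0.40 to 0.66), and in conventional dendritic-like cells, at 543 and 429 CPM (0.34, 0.25 to 0.43). Rps27l was lower in mature B-like cells, at 127 and 244 CPM (-0.95, -1.21 to -0.69). The mature B-like class pooled a cluster of 127 and 314 cells with one of 195 and 200 cells. The part of this make-up in its differences was not tested. Rpl7a was higher in plasma cell-like cells, at 793 and 579 CPM (0.45, 0.41 to 0.50), although most members were lower there. Rpl37 was higher in neutrophil-like cells, at 955 and 688 CPM (0.47, 0.40 to 0.55).

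Transcript length, taken as the median over the annotated protein-coding transcripts of a gene, moved with these ratios only weakly. Which transcript the cells expressed was not measured, so a gene with a short expressed transcript can stand among the longest. In the 27 members with the shortest transcripts (367.5 to 599.5 bases) 18 had a median ratio above 0, in the middle 27 it was 15, and in the 27 longest (854 to 3706 bases) it was 12. The medians of these sets were 0.03, 0.01 and -0.02. Rpl35, with the largest median of 0.44, stood in the longest set by this measure.

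**Figure D4:**
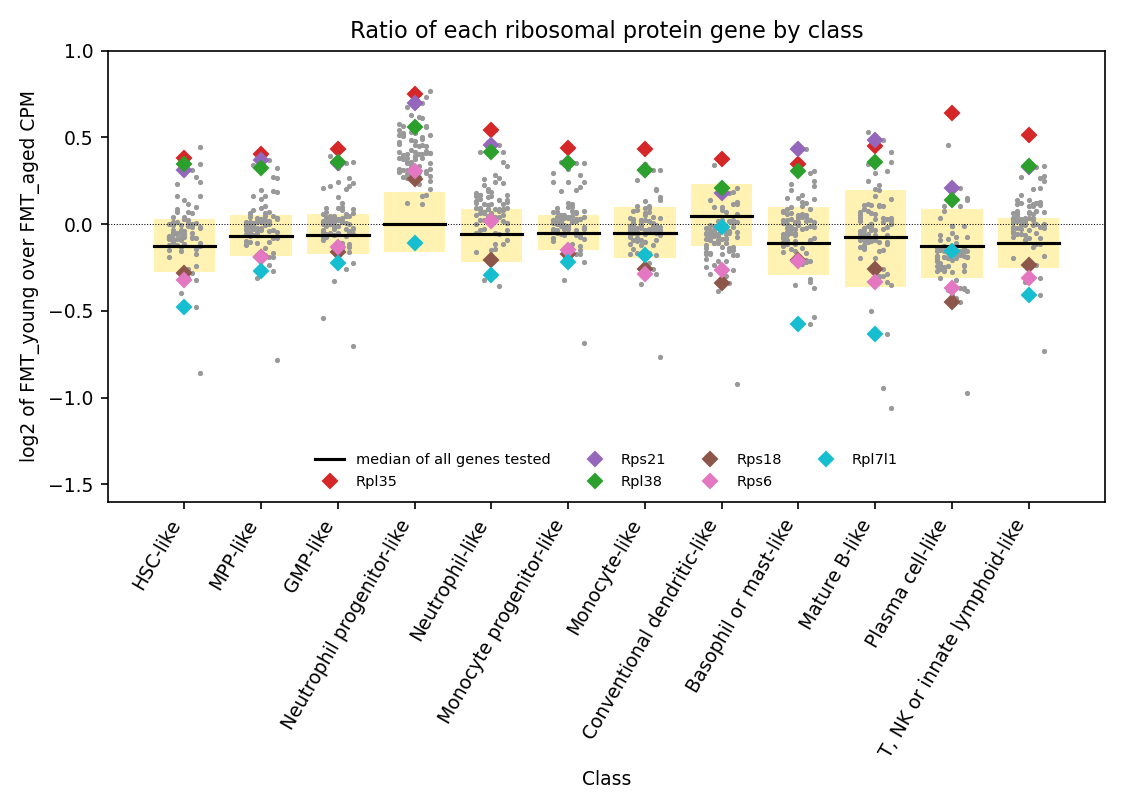
log2 of FMT_young over FMT_aged CPM (y axis) for each member with at least 100 UMIs in a class (grey points) in the 12 compared classes (x axis), with 6 members in colour. The black line is the median of all genes tested and the yellow box their first to the third quartile. Rpl35, Rps21 and Rpl38 lie above 0 in every class, and nearly all members do so in neutrophil progenitor-like cells.

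Outside the members, the genes whose level over the 24 points (12 classes in 2 libraries) was most like that of the summed members included Eef1a1 (Pearson r of 0.993), the elongation factor that brings aminoacyl-tRNA, Rack1 (0.990), a scaffold on the small subunit, the RNA helicase Ddx18 (0.981), the initiation factor subunit Eif3e (0.978), the nucleolar helicase Ddx21 (0.976), Eif3m (0.975), the translocation factor Eef2 (0.974), Aimp1 (0.973) and Alkbh1 (0.972). They were among the first 10 of 2755 genes compared. The points share 2 libraries, and immunoglobulin and mitochondrial UMIs were left out of the totals. The neutrophil-like and neutrophil progenitor-like points lay far from the rest. Eef1a1 was at 587 to 1701 CPM in them and at 3864 to 6264 CPM in the other classes. How far these points carry the r values was not tested.

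Other genes of translation did not all keep the same proportion to the ribosomal protein genes. Per 100 ribosomal protein UMIs, the 18 genes found of the elongation factors and other TOP genes had 6.87 and 7.38 UMIs in GMP-like and 10.4 and 10.8 in neutrophil-like cells. The 32 initiation factors had 2.53 and 2.83 in GMP-like and 7.44 and 7.36 in neutrophil-like cells. Relative to the ribosomal protein genes, these lists were thus higher in neutrophil-like cells of both libraries. The ribosomal protein share itself was 30.97% and 30.07% of UMIs in GMP-like and 4.51% and 4.18% in neutrophil-like cells. A higher value per 100 ribosomal protein UMIs, here and below, need not mean a higher level of the list.

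The 46 genes of ribosome biogenesis and the nucleolus ran the other way, with 1.71 and 2.0 in GMP-like, 2.0 and 2.14 in MPP-like, 1.35 and 1.35 in neutrophil-like and 0.996 and 1.01 in T, NK or innate lymphoid-like cells. The 78 mitochondrial ribosomal protein genes had 1.44 and 1.61 in HSC-like, 2.16 and 2.55 in GMP-like and 4.06 and 4.64 in neutrophil-like cells. The Myc network list summed 11 genes, namely Myc, Mycn, Mycl, Max, Mlx, Mxd1, Mxd3, Mxd4, Mxi1, Mnt and Mga. It had 0.131 and 0.126 in GMP-like and 2.64 and 2.66 in neutrophil-like cells. The sum is no measure of Myc itself. The 13 genes of mTORC1 and the S6 kinases had 0.186 and 0.203 in GMP-like and 0.722 and 0.861 in neutrophil-like cells. The 4 snoRNA host transcripts found of 11 had 0.147 and 0.131 in HSC-like and 0.0792 and 0.0755 in GMP-like cells. The 9 members outside the ribosome had 1.36 and 1.46 in plasma cell-like and 0.507 and 0.593 in mature B-like cells.

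Between the libraries some of these lists lay on another side than the members. In GMP-like cells, where 63.2% of all genes tested were lower in FMT_young, 76 of 77 mitochondrial ribosomal protein genes and 45 of 46 biogenesis genes were lower, with medians of -0.21 and -0.21, while the ribosomal protein genes had a median of 0.01. In HSC-like cells, where 70.9% of all genes were lower, 70 of 77 mitochondrial ribosomal protein genes were lower. Of the 18 elongation and other TOP genes, 18 were lower in plasma cell-like cells (65.9% of all genes) and 15 were higher in neutrophil progenitor-like cells (49.8%), the same side as the members in each.

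**Figure D5:**
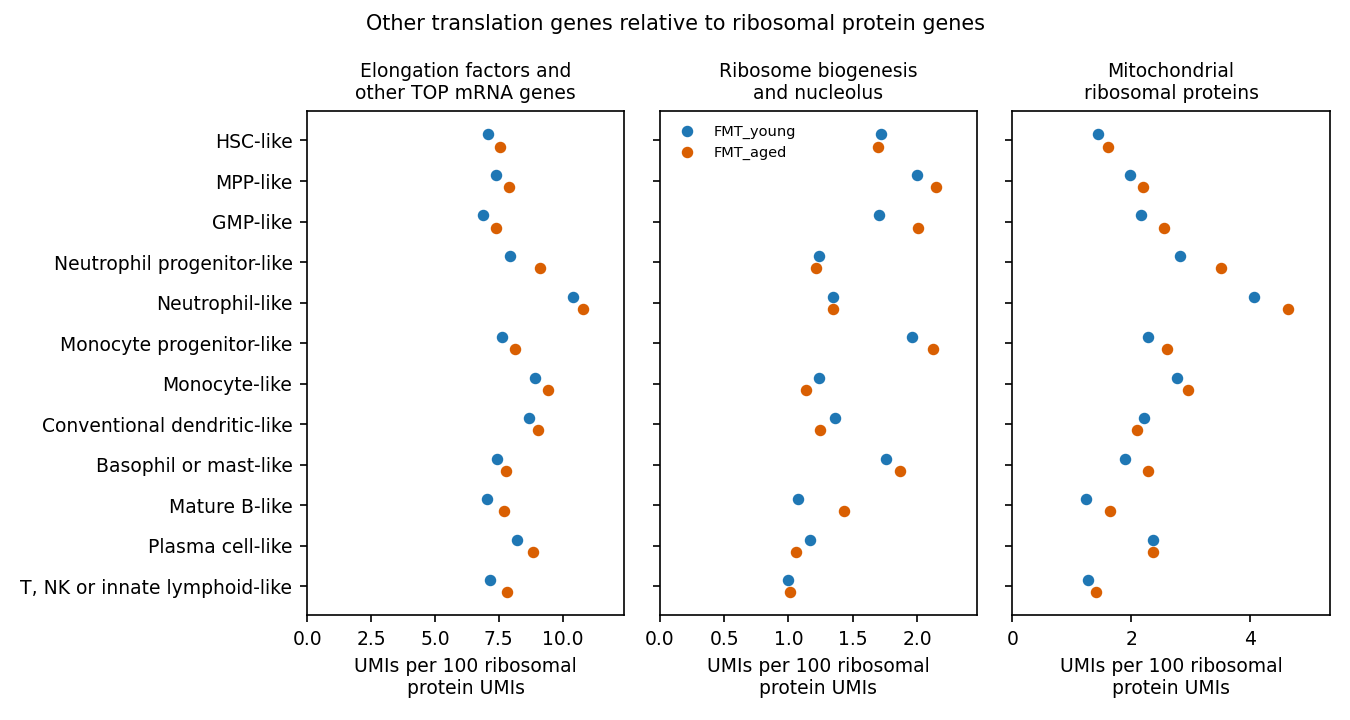
UMIs of 3 gene lists per 100 ribosomal protein UMIs (x axes) in the 12 compared classes (y axis) of each library. Mitochondrial ribosomal protein genes and elongation factors with other TOP genes are highest in neutrophil-like cells, and biogenesis genes in MPP-like cells.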

How the data were processed

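The authors deposited raw UMI counts per gene and barcode for each library, made with Cell Ranger on mm10 per the submitters' processing notes. The software version is 3.1.0, per the file headers. Names of genes and barcodes stand in deposited files of their own, with no measured value (unit other). Strand and the treatment of reads that fit several genes are not given in the sources used here, so near-identical copies are uncertain.

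Barcodes with at least 1000 UMIs, 500 genes and at most 10% mitochondrial UMIs were called as cells (11932 in FMT_young and 11351 in FMT_aged), and the highest doublet scores (0.8% per 1000 cells) were removed. Counts were clustered with 2000 variable genes, 40 principal components, 20 neighbours and the Leiden method at resolution 1.0 (leidenalg 0.10.2, igraph 0.11.9, Python 3.11.15), without the 86 members. Clusters were named from 17 marker lists with at least 3 markers in 10% of cells and 1.5 times higher than elsewhere. Counts were summed per class and library, with exact Clopper-Pearson and conditional binomial intervals at 95% (scipy 1.17.1). The TMM shift was computed in Python. On simulated counts, 95.3% of intervals held the true ratio in GMP-like (10867 genes run) and in neutrophil progenitor-like cells (4240 genes), changed genes included. Counting noise alone took 4.16% and 18.4% of the unchanged genes past 0.25.

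The members, gene lists and markers were chosen with earlier results of these data known. The naming thresholds, the treatment of ties, the Kit limit of 20% for progenitor classes, the 15% limit on shares, the median over shares, the 0.05 limit on moved medians, the assignment of added cells by 15 neighbours and the count of members with 1 direction in every class were set after the data had been seen. Genes were named by rule: the 5 highest and lowest levels, the 6 largest and 4 smallest spreads over classes, the 2 leading members per class and direction by interval, a fixed list of known members and paralogs, and the 10 genes most alike. A few genes that the rule names, and 1 gene list, are not reported here.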

Additional observations from a re-analysis of the deposited data

Results flagged for a closer look

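Against the 9 compared classes in which the ribosomal protein share was higher in FMT_young, 3 had a log2 ratio under 0: -0.17 in plasma cell-like, -0.070 in conventional dendritic-like and -0.014 in HSC-like cells. The difference between classes was not tested, since each group is 1 library.

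Signals lay outside the kept cells too. In barcodes with under 100 UMIs, ribosomal protein genes held 22.0% of UMIs in FMT_young and 22.5% in FMT_aged. In barcodes over the mitochondrial limit they held 16.2% and 14.1%, and in cells removed as doublets 24.9% and 26.8%. The 9 pseudogene rows left out of the members held 0.0144% and 0.0167% of the UMIs of kept cells. These differences were not tested either.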

How the results depend on the processing

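Of the 12 class ratios, 5 took the opposite sign under at least 1 alternative: plasma cell-like cells with classes by marker score (0.20) and at resolution 2.0 (0.016), HSC-like cells with the 50 leading other genes left out (0.015), and mature B-like, monocyte-like and basophil or mast-like cells, at -0.028, -0.013 and -0.0096 at the lowest. The cause was not tested. The count of classes under 15% was 3 and became 1 with the 50 leading genes left out. It was 2 without immunoglobulin UMIs, with or without mitochondrial UMIs (plasma cell-like cells then at 21.9% and 24.1% without both), with members used in clustering, at resolution 2.0 and by marker score (neutrophil progenitor-like cells then at 26.2% and 22.3%, 27.3% and 26.4%, and 17.01% and 13.5%). For neutrophil progenitor-like cells the ratio of 0.41 was 0.38 without doublet removal, 0.30 without the 50 leading genes, 0.33 as a mean over cells, thinned to 2000 UMIs or with classes by marker score, 0.47 with free RNA subtracted, 0.23 with members used in clustering and 0.047 at resolution 2.0. The last 2 values describe other cells: 536 and 291, and 1042 and 659, were added to the class, and its own cells that kept the name had 0.41 in both. For neutrophil-like cells 0.11 was 0.46 without doublet removal and 0.57 by marker score.

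The median share over classes and libraries was 28.19% and moved beyond counting error to 28.02% and 27.88% at mitochondrial limits of 5% and 20%, 27.86% without doublet removal, 28.34% without immunoglobulin, 29.35% without immunoglobulin and mitochondrial UMIs, 33.64% without the 50 leading genes, 27.84% as a mean over cells, 27.94% thinned, 28.45% with free RNA subtracted, 27.91% with members used in clustering, 28.07% at resolution 2.0, 29.14% by marker score and 27.96% for ribosome members only. The median class ratio of 0.025 was 0.034 at 2000 UMIs or more and, in the same order up to marker score, 0.038, 0.031, 0.012, 0.032, 0.033, 0.044, 0.011, 0.017, 0.028, 0.017, 0.033 and 0.031.

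The 139 pairs at 0.25 or more were 79 at resolution 2.0, 222 by marker score and 26 at a limit of 0.5, and the 69 at -0.25 or less were 42 with TMM and 15 at the limit of 0.5. The members higher in every class were 10 without immunoglobulin and mitochondrial UMIs, at resolution 2.0 and with TMM, and 11 by marker score. All 6 were kept in every alternative except thinning, which kept 4. The members lower in every class were 0 with free RNA subtracted and by marker score, 10 at resolution 2.0 and 2 with no minimum of UMIs. Rpl7l1, the 1 such member, was not among them in these first 3, and with thinning or members used in clustering Rpl36al stood in its place. An alternative added after seeing the data, the limit of 100 UMIs in the lower of 2 related classes, left all such counts within 1.5 times. Of 224 alternative values for the median ratio of 16 single members, 16 moved and 0 took the opposite sign.

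No paired analysis was possible because each group is 1 library, and for the same reason no replicate was left out. Depth limits the neutrophil classes, where the fewest members passed 100 UMIs.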
